A study of Homo sapiens with 6 samples.

Results

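Non-homologous end joining rejoins the ends of a broken DNA double strand without copying from a sister chromatid. The 10 genes described here were chosen by name for this pathway, namely XRCC5, XRCC6, PRKDC, XRCC4, LIG4, NHEJ1, PAXX, DCLRE1C, POLL and POLQ, out of 21447 genes with summed transcript counts, and all 10 passed the filter on low counts. RNA-seq was measured in the human osteosarcoma line U-2 OS, unsynchronized, in 3 libraries of untreated cells and 3 of cells given ionizing radiation (IR) at 4 Gy and harvested 24 h later. All 6 libraries came from the same line grown in DMEM with serum, and RNA was extracted with TRIzol. According to the labels the libraries were made from polyadenylated RNA with an mRNA kit, but the study's methods describe a total RNA kit. The study describes the samples of a group as independent, and the labels do not say whether they came from separate cultures, so the p-values below measure the spread between these libraries.

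In the classical pathway, a ring of the Ku proteins slides onto each broken end and recruits the kinase DNA-PKcs. Ends that cannot be joined directly are trimmed by the nuclease Artemis or filled by polymerases of the X family, and DNA ligase IV then seals them with its partner XRCC4 and the related scaffolds XLF and PAXX. DNA polymerase theta serves a separate route, in which resected ends are paired through short stretches of matching sequence and joined with small deletions.

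The libraries held between 18573309 and 22953834 estimated counts, except IR replicate 3 with 45308792. IR replicate 3 also stood apart from the other IR libraries, with a chi-square per gene of 29.1 and 32.2 against them, where the other replicate pairs of a group lay between 3.45 and 9.15. Its deposited file alone has a name with a suffix that may stand for a repeat, and no source used here tells whether it was sequenced a second time. CDKN1A, which encodes the cell cycle inhibitor p21 and served as the check of the treatment, rose from 120 to 124 CPM (counts scaled to a common library total) in the untreated libraries to 322 to 390 CPM after IR, with a log2 fold change of 1.53 ± 0.08 (SE, adjusted p = 2.82e-05, edgeR's quasi-likelihood test). Of the markers of the mesenchymal lineage, VIM, SPARC, COL1A1 and CDH2 were at 221 CPM or more in every library, while COL1A2 stayed between 0.977 and 2.14 CPM and RUNX2 between 11.3 and 16.1 CPM, and RUNX2 was called lower after IR (log2 fold change −0.36, adjusted p = 0.0250, edgeR). Of the epithelial markers, EPCAM was at 8.55 to 10.6 CPM, CDH1 at 1.87 to 3.43 CPM and called higher after IR (0.61, adjusted p = 0.0465, edgeR), and KRT19 had at most 1 count in a library. The T cell gene CD3E had 0 counts in all 6 libraries. RAG2, a subunit of the recombinase that makes the breaks of V(D)J recombination, had at most 4 counts in a library and DNTT, the lymphoid member of the X family of polymerases, at most 5, whereas the partner subunit RAG1 had 14 to 40 counts. PTPRC, a gene of blood cells in general, had 15 to 34 counts.

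Sequences at the start of 4 of the genes are shown as examples of genes called lower (POLQ and DCLRE1C), called higher (PAXX) and not called (XRCC6) after IR. They describe the genes, and a link between these letters and the changes was not tested. The windows were taken from RefSeq on GRCh38.p14 and run from 250 bases before to 50 bases after an annotated start, 5′ to 3′ on the strand of the gene. Capitals mark the letters searched on both strands, which belong to 4 motifs. The CHR element, found in many genes that cycle with mitosis, was searched as TTTGAA and also as its variant TTCGAA. The others were CCAAT, the GC box with the letters GGGCGG, and the E2F site, with the letters TTTCGCGC, its variant TTTGGCGC and the form GGCGGGAA. These 4 windows lie at chr3:121545939-121546238 on the minus strand (POLQ), chr10:14954047-14954346 on the minus strand (DCLRE1C), chr22:41621045-41621344 on the plus strand (XRCC6) and chr9:136992172-136992471 on the plus strand (PAXX).
POLQ: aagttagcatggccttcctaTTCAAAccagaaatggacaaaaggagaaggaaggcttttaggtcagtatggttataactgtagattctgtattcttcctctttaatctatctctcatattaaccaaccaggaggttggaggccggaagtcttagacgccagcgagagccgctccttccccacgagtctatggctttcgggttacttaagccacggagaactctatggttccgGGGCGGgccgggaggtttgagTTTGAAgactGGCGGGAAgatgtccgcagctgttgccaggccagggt
DCLRE1C: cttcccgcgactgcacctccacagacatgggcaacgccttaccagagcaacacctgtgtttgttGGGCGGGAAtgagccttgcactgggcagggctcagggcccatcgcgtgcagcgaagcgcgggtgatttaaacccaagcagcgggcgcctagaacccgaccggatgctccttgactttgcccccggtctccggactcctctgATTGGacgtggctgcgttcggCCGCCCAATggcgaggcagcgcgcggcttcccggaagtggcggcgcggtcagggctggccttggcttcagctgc
XRCC6: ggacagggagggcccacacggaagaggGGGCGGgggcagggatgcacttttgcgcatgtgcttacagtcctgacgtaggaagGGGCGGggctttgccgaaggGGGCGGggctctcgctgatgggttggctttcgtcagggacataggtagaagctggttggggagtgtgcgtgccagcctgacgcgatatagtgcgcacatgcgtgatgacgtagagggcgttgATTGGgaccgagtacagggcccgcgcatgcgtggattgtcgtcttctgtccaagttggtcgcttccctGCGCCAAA
PAXX: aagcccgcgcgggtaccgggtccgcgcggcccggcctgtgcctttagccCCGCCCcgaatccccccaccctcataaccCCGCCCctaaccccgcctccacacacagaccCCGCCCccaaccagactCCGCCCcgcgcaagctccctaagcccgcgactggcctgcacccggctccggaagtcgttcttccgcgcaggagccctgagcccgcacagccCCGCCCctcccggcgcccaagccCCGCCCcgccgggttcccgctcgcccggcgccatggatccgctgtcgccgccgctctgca

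In the POLQ window, CHR letters began at base 21 and at base 254, the latter 3 bases after the annotated start, and E2F letters followed at base 264. The DCLRE1C window, whose start is that of the canonical transcript, held CCAAT letters at bases 206 and 231 and E2F letters at base 66 that overlap a GC box. XRCC6 had E2F letters at its last 8 bases, and PAXX had 6 GC boxes and no other letters of the search, in a window of 75.7% GC against a median of 58.7% over all promoters. Across 15 RefSeq promoters of 8 of the genes, CHR letters were found in 1, E2F letters in 3, CCAAT in 7 and the GC box in 10. Among 35116 promoters of the same length, these letters were found in 16.4%, 4.24%, 34.6% and 45%. The 15 windows are not all separate, as some of the same gene overlap and 1 GC box of LIG4 was counted in more than 1 window. PRKDC and XRCC5 had no window in this set. A match describes the letters in the window and is not a measured binding site.

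The 10 genes differed widely in level. CPM per kb of the canonical transcript give a rough comparison between genes, as counts may come from transcripts of other lengths. They were highest for the Ku genes, at 327 ± 14.9 for XRCC6 (SD, n = 3) and 209 ± 8.46 for XRCC5 in untreated cells. PRKDC followed at 52.7 ± 2.59, PAXX at 20.2 ± 3.05, XRCC4 at 15.5 ± 0.641 and POLQ at 10.5 ± 0.239. POLL was at 7.18 ± 0.271, LIG4 at 6.70 ± 0.575, DCLRE1C at 5.17 ± 0.0901 and NHEJ1 at 4.35 ± 0.0890. Of neighbours in this order, POLL and LIG4 had overlapping ranges in the untreated libraries, and the others did not overlap. The canonical transcripts POLL-203 and XRCC4-203 were at 0 CPM in every untreated library, so these levels rest on the length of a transcript without counts. XRCC5-201 held 29.7% to 53.9% of the XRCC5 counts in untreated cells and PAXX-201 21.2% to 50.3% of the PAXX counts.

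On the authors' TPM scale, summed over the transcripts of a gene, some of the order changed. XRCC5 was at 574, 545 and 912 TPM in the untreated libraries and XRCC6 at 582, 580 and 588 TPM, so that their ranges overlapped. XRCC4 (36.7 to 39.6 TPM) lay above PAXX (18.0 to 23.0 TPM), the reverse of their order per kb. POLQ (24.8 to 28.6 TPM) also lay above PAXX, and NHEJ1, the lowest per kb, was at 15.0 to 19.4 TPM, above POLL (11.5 to 12.0 TPM) in every untreated library. The canonical NHEJ1 transcript, whose 8020 bases set its level per kb, held 54.8% to 59.8% of the NHEJ1 counts in untreated cells. In untreated replicate 3, where XRCC5 was highest, a short XRCC5 transcript of 415 bases held 61.4 CPM, against 35.5 and 23.9 CPM in the other untreated libraries. A share of counts given to a short transcript weighs more in TPM than in CPM.

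**Figure D1:**
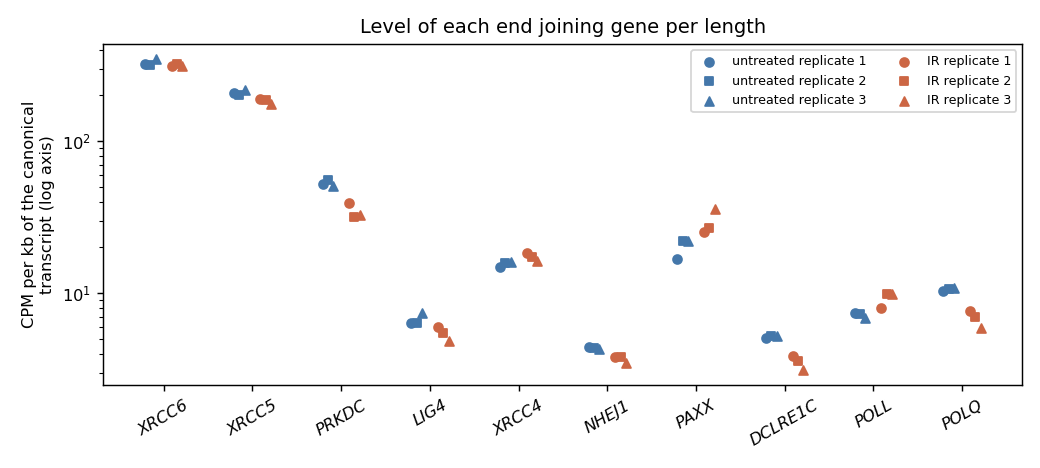
CPM per kb of the canonical transcript (log axis) for the 10 genes in each of the 6 libraries, with untreated libraries in blue, IR libraries in orange and 1 point per library. XRCC6 and XRCC5 lie above all other genes in every library, and the PRKDC points fall from a mean of 52.7 in untreated cells to 34.5 after IR.

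After IR, 5 of the 10 genes were called lower (PRKDC, POLQ, DCLRE1C, LIG4 and NHEJ1), 2 were called higher (PAXX and POLL), and XRCC4, XRCC5 and XRCC6 did not pass the test. Calls were made at an adjusted p under 0.05 by edgeR's quasi-likelihood test over 14323 genes, of which 14.5% were called lower and 15.5% higher. The median log2 fold change was −0.21 over the 10 genes and 0.01 over all genes tested. In 6 of the 10 genes the IR libraries all lay below the untreated libraries, as they did for 23.3% of all genes tested, and in 3 they all lay above, as for 23.8% of all genes. The summed level of the 10 genes, most of which came from the Ku genes and PRKDC, was 2330 to 2397 CPM in untreated cells and 1889 to 2046 CPM after IR. In bulk RNA, fewer cells that express a gene and less RNA of that gene per cell cannot be told apart.

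**Figure D2:**
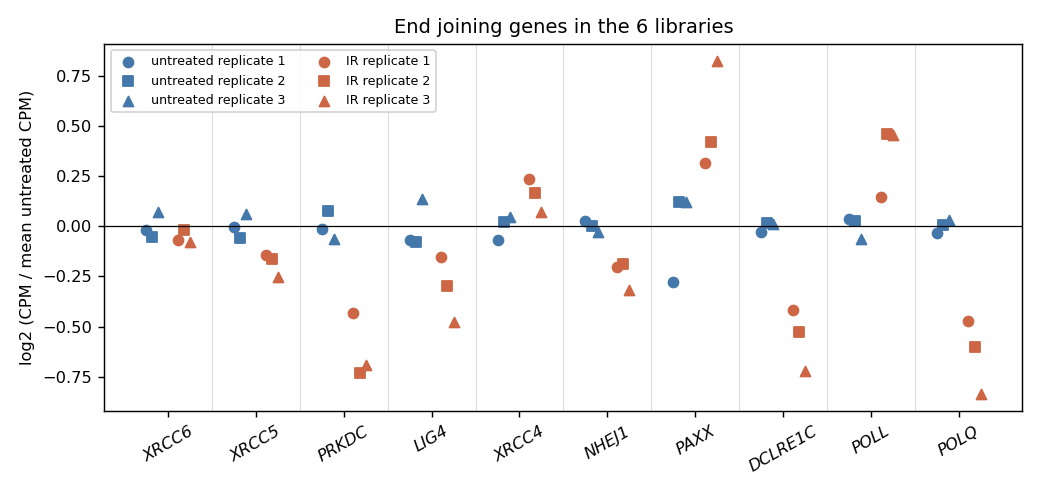
The log2 ratio of CPM in each library to the mean of the untreated libraries, for the 10 genes, with untreated libraries in blue, IR libraries in orange and the marker shape giving the replicate number. PRKDC, DCLRE1C and POLQ show the widest gaps below 0 after IR, PAXX and POLL lie above 0, and the XRCC6 points of both groups overlap.

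Neither Ku gene passed the test. XRCC6 (ENSG00000196419, chromosome 22, 41621163 to 41664048, plus strand) encodes Ku70. Its level was 685, 669 and 730 CPM without IR and 664, 685 and 658 CPM with it, in the order of the replicates, as for the genes that follow. These groups overlapped, and the log2 fold change was −0.05 with a 95% confidence interval of −0.19 to 0.08 (adjusted p = 0.531, edgeR). XRCC5 (ENSG00000079246, chromosome 2, 216107464 to 216206303, plus strand), which encodes Ku80, was at 705, 680 and 737 CPM in untreated cells and at 640, 632 and 593 CPM after IR. All 3 IR libraries lay below the untreated ones, but the log2 fold change of −0.19 ± 0.06 (SE) did not pass the test (adjusted p = 0.0502, edgeR). Without IR replicate 1 the adjusted p of XRCC5 was 0.0429 and the gene was called lower. XRCC6 has 5 annotated pseudogenes that are not among the features used here, so reads from such copies could not be separated from it.

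PRKDC (ENSG00000253729, chromosome 8, 47773111 to 47960178, minus strand, 86 exons) encodes DNA-PKcs, the kinase that Ku brings to the break. Its level was 702, 747 and 679 CPM in untreated cells and 526, 427 and 439 CPM after IR. Every IR library lay below every untreated library, at 0.654 times the untreated level (log2 fold change −0.61 ± 0.09 SE, adjusted p = 0.00124, edgeR). The call held when any 1 library was left out, with log2 fold changes from −0.73 to −0.56. With an offset for the mean effective length of the gene in each library, however, the value turned to 0.07 (adjusted p = 0.792, edgeR). That mean length, weighted by the TPM of each transcript, was 7927, 8916 and 8810 bases in the untreated libraries and 6906, 5784 and 4007 bases after IR. With transcript weights held the same in all libraries, the value was −0.64 and PRKDC was called lower.

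The shift in mean length came with a change in which PRKDC transcripts received the reads. PRKDC was the only one of the 10 genes called for transcript usage (adjusted p = 0.0301, Simes p-values from edgeR's diffSpliceDGE), where 2.67% of 10666 genes were called. The canonical transcript PRKDC-201, of 13459 bases, was at 681, 723 and 657 CPM in untreated cells and at 503, 399 and 391 CPM after IR, lower in every IR library. PRKDC-206, a transcript of 659 bases at the 3′ end that matches exons 83, 84 and 86 and lacks the 140 bases of exon 85, was at 0.384, 0 and 0 CPM in untreated cells and at 2.03, 3.81 and 12.8 CPM after IR. PRKDC-204 and PRKDC-207, annotated as retained introns and lying near the same end, were also higher in every IR library than in any untreated one. Tested by transcript, PRKDC-206 passed (adjusted p = 0.0236, edgeR's diffSpliceDGE), whereas PRKDC-204 (0.0888) and PRKDC-207 did not. PRKDC-203 and PRKDC-208, further retained introns near that end, were at 0.354 CPM or less in every library, with overlapping groups, and were not tested.

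Together PRKDC-204, PRKDC-206 and PRKDC-207, grouped after their values were seen, held 2.39%, 1.42% and 1.74% of PRKDC counts in untreated cells and 4.07%, 5.95% and 10.3% after IR. IR replicate 3, the deepest library, had the highest share. The usage call was lost without untreated replicate 2 (adjusted p = 0.129, edgeR), untreated replicate 3 (0.170), IR replicate 2 (0.0796) or IR replicate 3 (0.224). It was also lost when each library had to reach 10 counts (adjusted p = 0.287, edgeR). The part of RNA integrity in these shares was not tested.

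**Figure D3:**
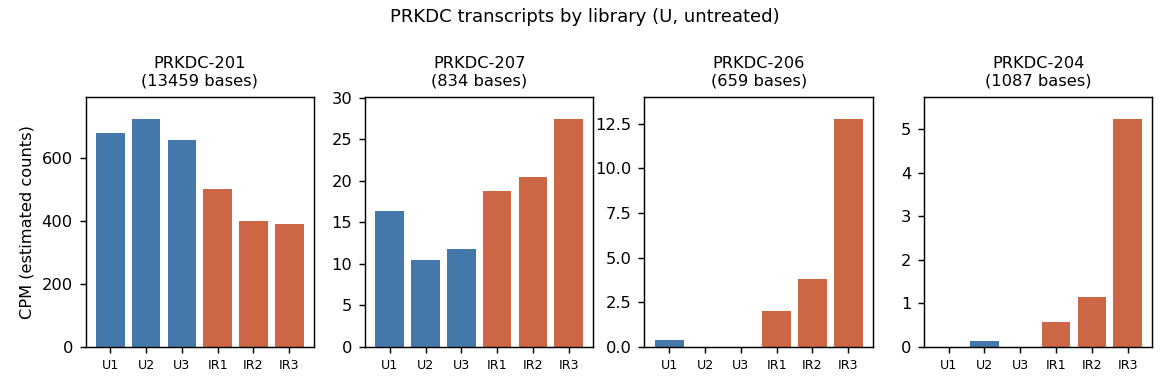
CPM from the estimated counts assigned to 4 PRKDC transcripts in each library, with untreated libraries in blue and IR libraries in orange, 1 bar per library and a separate axis from 0 in each panel. The full-length PRKDC-201 is lower in all 3 IR libraries, whereas the 3 short transcripts shown, chosen near the 3′ end, are higher, with the highest bars in IR replicate 3.

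LIG4 (ENSG00000174405, chromosome 13, 108207439 to 108218368, minus strand) encodes the ligase of the pathway. It was at 25.4, 25.3 and 29.3 CPM in untreated cells and at 24.0, 21.7 and 19.1 CPM after IR, without overlap, and was called lower with a log2 fold change of −0.31 ± 0.10 (SE, adjusted p = 0.0424, edgeR). The gap between the groups was narrow, from 24.0 to 25.3 CPM. The call held when IR replicate 1 was left out (adjusted p = 0.0187, edgeR) and was lost without untreated replicates 1 (0.0748), 2 (0.0715) or 3 (0.147) and without IR replicates 2 (0.0925) or 3 (0.0906). After removal of the GC trend, fitted per library, LIG4 moved to −0.08 (adjusted p = 0.479, edgeR).

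XRCC4 (ENSG00000152422, chromosome 5, 83077498 to 83353787, plus strand), the scaffold that stabilizes ligase IV, was not called. XRCC4 was at 23.7, 25.3 and 25.7 CPM in untreated cells and at 29.3, 27.9 and 26.1 CPM after IR. The IR libraries all lay above the untreated ones, and the log2 fold change of 0.15 ± 0.08 (SE) did not pass the test (adjusted p = 0.165, edgeR). With the GC trend removed it was 0.38 and was called higher (adjusted p = 0.00303, edgeR).

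The ratio of LIG4 to XRCC4 within a library was 0.350, 0.331 and 0.398 in TPM in untreated cells and 0.276, 0.261 and 0.264 after IR. All 3 IR ratios were below the untreated ones, with a difference of −0.42 on the log2 scale. The two-sided exact permutation test gave p = 0.1, the smallest that 3 libraries against 3 allow, and 0.5 after adjustment over the 5 ratios compared. In CPM the difference of this ratio was −0.46. The XRCC6 to XRCC5 ratio differed by 0.34 in TPM (p = 0.4, exact permutation test) and by 0.13 in CPM, and the NHEJ1 to XRCC4 ratio by −0.21 and −0.39. The PRKDC to XRCC5 ratio had opposite signs on the scales, with 0.49 in TPM and −0.43 in CPM, and the POLQ to LIG4 ratio differed by −0.05 and −0.33. Untreated replicate 3 had the highest XRCC5 TPM, and without it the TPM differences were 0.11 for XRCC6 to XRCC5 and 0.196 for PRKDC to XRCC5. For POLQ to LIG4 the TPM difference turned to 0.011 without untreated replicate 2 and 0.107 without IR replicate 3, and for NHEJ1 to XRCC4 it was −0.138 without untreated replicate 2 and −0.128 without IR replicate 1.

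NHEJ1 (ENSG00000187736, chromosome 2, 219069355 to 219160869, minus strand) encodes XLF, which resembles XRCC4 and forms filaments with it. Its level of 35.6, 34.96 and 34.2 CPM in untreated cells was 30.3, 30.6 and 28.01 CPM after IR. The groups did not overlap, and NHEJ1 was called lower with a log2 fold change of −0.24 ± 0.07 (SE, adjusted p = 0.0320, edgeR). The call was lost without untreated replicates 1 (adjusted p = 0.109, edgeR), 2 (0.0946) or 3 (0.0567) or without IR replicate 2 (0.0605). A second gene on the same strand, ENSG00000280537, shares up to 1127 bases per pair of exons with NHEJ1. That gene held 2.12 to 4.20 CPM, so that reads could be split between it and NHEJ1.

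PAXX (ENSG00000148362, chromosome 9, 136992422 to 136993984, plus strand) encodes the third XRCC4-like protein, which binds Ku. It rose from 13.5, 17.7 and 17.7 CPM in untreated cells to 20.3, 21.8 and 28.9 CPM after IR, with untreated replicate 1 the lowest and IR replicate 3 the highest library. The log2 fold change was 0.55 ± 0.15 (SE, adjusted p = 0.0206, edgeR), with the widest standard error of the 10 genes. PAXX was the least counted of them, with 245 counts in untreated replicate 1. The call was lost without that library (log2 fold change 0.43, adjusted p = 0.0759, edgeR). Without IR replicate 3 the value was 0.35 and PAXX was still called (adjusted p = 0.0477, edgeR). With the GC trend removed the value was 0.12 (adjusted p = 0.452, edgeR). The canonical transcript PAXX-201, annotated as protein coding, held 21.2%, 30.9% and 50.3% of the PAXX counts in untreated cells. PAXX-201 was at 2.86, 5.49 and 8.89 CPM in untreated cells and 8.76, 8.93 and 14.5 CPM after IR, with overlapping groups. The other PAXX transcripts are annotated as retained introns.

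Of the genes for end processing, DCLRE1C and POLL went opposite ways. DCLRE1C (ENSG00000152457, chromosome 10, 14897359 to 14954432, minus strand) encodes Artemis, the nuclease that opens hairpins and trims ends together with DNA-PKcs. It was at 30.2, 31.2 and 31.1 CPM in untreated cells and at 23.0, 21.4 and 18.7 CPM after IR. The untreated libraries lay within 1 CPM of each other and all IR libraries below them, at 0.679 times the untreated level (log2 fold change −0.56 ± 0.09 SE, adjusted p = 0.00208, edgeR). DCLRE1C was called lower under all 18 alternative settings. Its canonical transcript DCLRE1C-209, whose start the printed window covers, held 20.4, 21.4 and 20.9 CPM in untreated cells and 16.5, 13.7 and 14.3 CPM after IR. SUV39H2, on the opposite strand, shares up to 159 bases per pair of exons with DCLRE1C and was also lower (log2 fold change −0.33, adjusted p = 0.0102, edgeR). Whether the counting used strand is not given in the sources used here. DCLRE1C also has 1 annotated pseudogene that is not among the features used here, whose reads could not be separated from it.

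POLL (ENSG00000166169, chromosome 10, 101578882 to 101588270, minus strand) encodes DNA polymerase lambda, which fills gaps at ends held by Ku. It was at 20.5, 20.3 and 19.1 CPM in untreated cells and at 22.1, 27.4 and 27.4 CPM after IR. The groups did not overlap, with IR replicate 1 nearest to the untreated libraries, and POLL was called higher with a log2 fold change of 0.36 ± 0.10 (SE, adjusted p = 0.0201, edgeR). The call was lost without untreated replicates 1 (adjusted p = 0.0555, edgeR), 2 (0.0583) or 3 (0.0705) and without IR replicate 2 (0.0704). With the GC trend removed POLL was at 0.17 (adjusted p = 0.146, edgeR). DPCD, which shares up to 182 bases per pair of exons on the opposite strand, had a log2 fold change of 0.21 (adjusted p = 0.125, edgeR).

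POLQ (ENSG00000051341, chromosome 3, 121431431 to 121545988, minus strand, 30 exons) encodes polymerase theta of the microhomology route, and had the lowest log2 fold change of the 10 genes. Its level was 90.0, 92.7 and 94.1 CPM in untreated cells and 66.6, 60.9 and 51.6 CPM after IR. The untreated libraries were close together and every IR library lay far below them, at 0.645 times the untreated level (log2 fold change −0.63 ± 0.09 SE, adjusted p = 0.00130, edgeR). Nearly all of it came from the full-length POLQ-201, at 87.6, 89.7 and 91.1 CPM in untreated cells and 62.9, 57.3 and 50.1 CPM after IR. The call held when any 1 library was left out, with log2 fold changes from −0.73 to −0.54, and was lost with the effective length offset (−0.33, adjusted p = 0.278, edgeR).

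Genes of the cell cycle moved in the same libraries. Of 43 S phase genes, 25 were called lower and 18 were not called, and their summed level was 5117 to 5468 CPM in untreated cells and 4353 to 4429 CPM after IR. Of 54 G2/M genes, 39 were called lower and 1 higher, with a summed level of 11767 to 12267 CPM in untreated cells and 8923 to 9535 CPM after IR. Over all genes tested, 14.5% were called lower and 15.5% higher. The S phase and G2/M medians were −0.23 and −0.39, so that POLQ, PRKDC and DCLRE1C lay below both. LIG4 (−0.31) and NHEJ1 (−0.24) lay below the S phase median only. With the GC trend removed, 22 of the S phase genes and 39 of the G2/M genes were called lower, with medians of −0.227 and −0.318. PRKDC (−0.57), POLQ (−0.51) and DCLRE1C (−0.44) then lay below both, and NHEJ1 (−0.222) and LIG4 (−0.08) below neither. With the effective length offset 13 of the S phase genes and 25 of the G2/M genes were called lower. The medians with that offset were −0.27 and −0.38. DCLRE1C (−0.82) then lay below both, POLQ (−0.33) below the S phase median only and PRKDC (0.07) below neither. The part of cell cycle distribution in the levels of the 10 genes was not tested.

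Over all genes, the direction of change ran with base composition. Of genes with at most 40% GC in their transcripts, 3.46% were called higher and 32.7% lower, whereas of genes above 60% GC, 44.3% were called higher and 0.827% lower. PAXX, at 65.3% GC, and POLL, at 58.5%, are the most GC-rich of the 10 genes and were the ones called higher. LIG4 and XRCC4, at 35.4% and 36.3%, are the least GC-rich, and differed in sign, with LIG4 lower and XRCC4 at 0.15. PRKDC and NHEJ1, at 47.1% and 48.8%, were called lower, and a trend over the 10 genes was not tested. With the GC trend of each library removed, PRKDC (−0.57), POLQ (−0.51), DCLRE1C (−0.44) and NHEJ1 (−0.22) were called lower and XRCC4 was the 1 gene called higher. Whether the GC trend is technical was not tested.

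**Figure D4:**
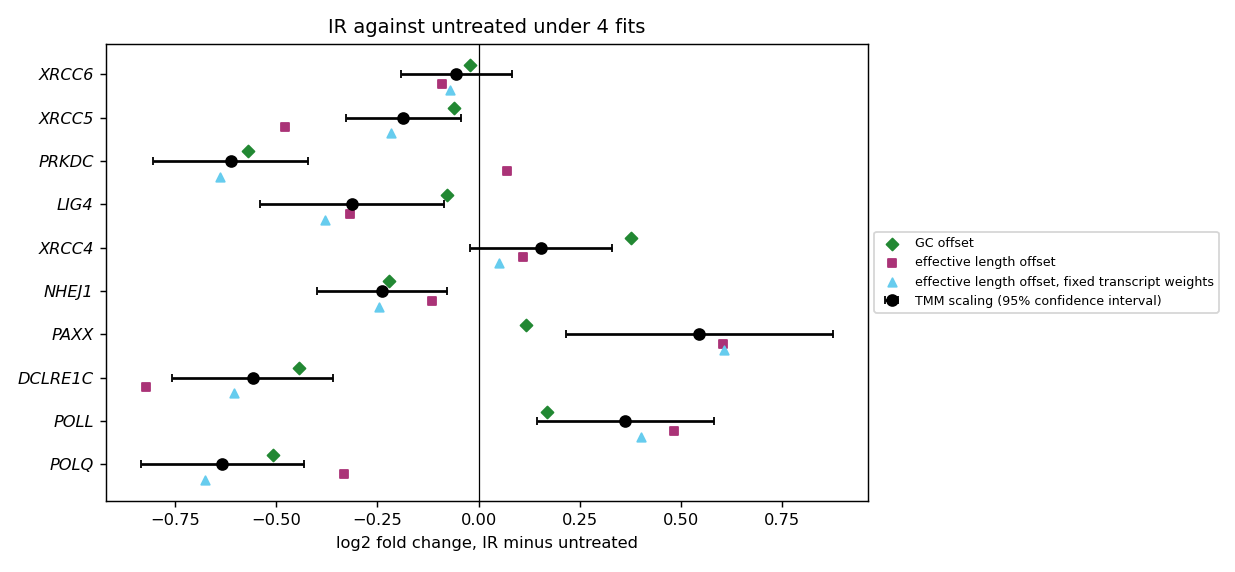
The log2 fold change of IR minus untreated for the 10 genes, with black points and 95% confidence intervals for edgeR with TMM scaling and coloured markers for the same genes with a GC offset or an effective length offset. PAXX, POLL and LIG4 move toward 0 and XRCC4 away from it with the GC offset, and PRKDC moves from −0.61 to 0.07 with the effective length offset but stays at −0.64 when transcript weights are fixed.

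Other genes that act at broken ends were taken from 3 further lists. Of 11 genes for end processing and regulation of the pathway, 3 were called higher and 2 lower, with a median log2 fold change of −0.12. Of all genes tested, 15.5% were called higher and 14.5% lower. IFFO1, whose product holds broken ends in place at the lamina, was at 0.72 (adjusted p = 0.0259, edgeR) and POLM, a polymerase related to POLL, at 0.24 (0.0434). The helicase genes ERCC6L2 and WRN were lower, at −0.41 (adjusted p = 0.0106, edgeR) and −0.29 (0.0315). IFFO1 had 59.2% GC and POLM 60.7%, and with the GC trend removed 1 gene of the list was called higher and 1 lower. Without IR replicate 3, 1 gene of the list was called, and it was lower.

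Of 13 genes for resection and alternative end joining, 9 were called lower, with a median of −0.31, and all 13 values were below 0. Of all 14323 genes tested, 14.5% were called lower and 6969 had values below 0. The nuclease EXO1 was at −0.46 (adjusted p = 0.00131, edgeR), the helicase BLM at −0.44 (0.00508), the nuclease and helicase DNA2 at −0.37 (0.00385) and the ligase LIG3 at −0.34 (0.00967). With the GC trend removed 7 of the 13 were called lower, with the effective length offset 1, and when 1 library was left out between 4 (without untreated replicate 3) and 9. Without untreated replicates 1 or 2 or IR replicate 2 the count was 5.

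Of 10 genes that protect ends from resection, 2 were called lower and 8 were not called, with a median of −0.03. The share called lower over all genes tested was 14.5%. RIF1, an effector of 53BP1, was at 144, 145 and 153 CPM in untreated cells and at 101, 86.4 and 78.6 CPM after IR, without overlap (log2 fold change −0.73, adjusted p = 0.000706, edgeR). SHLD2, of the shieldin complex, was at −0.33 (adjusted p = 0.00522, edgeR). RIF1 and SHLD2 had 37.8% and 37.9% GC, and with the GC trend removed 1 gene of the list was called lower. TP53BP1 itself was at −0.11, with overlapping groups, and did not pass the test (adjusted p = 0.262, edgeR).

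**Figure D5:**
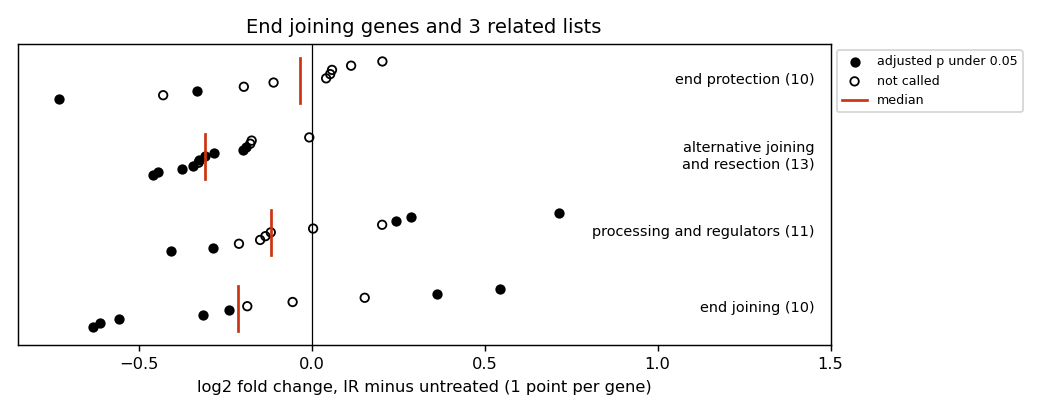
The log2 fold change of IR minus untreated for each gene of 4 lists, with filled points for genes at an adjusted p under 0.05 (edgeR), open points for the others and a red line at the median of each list. All 13 genes of resection and alternative joining lie below 0, while the 10 end joining genes spread from −0.63 to 0.55.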

How the data were processed

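Bulk RNA-seq of 3 untreated and 3 IR libraries was analysed, with groups and replicate numbers from the sample labels. The authors trimmed reads with fastp and assigned them with kallisto to transcripts of GENCODE release 37 (GRCh38), and deposited an estimated count, not normalized, and a TPM value, scaled by effective length and library total, for each transcript. By their identifiers, transcripts were assigned to genes of GENCODE release 44 (158711 matched, and 2460, with 1.54% to 1.80% of the counts, were left out), and the estimated counts were added up for each gene, then rounded. The annotation is of GRCh38.

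Genes were filtered by filterByExpr, scaled by TMM and tested by edgeR's quasi-likelihood test (edgeR 4.0.16, limma 3.58.1, R 4.3.3), two-sided, with Benjamini-Hochberg adjustment over all 14323 genes. DESeq2 1.42.0 was an alternative. CPM use TMM-scaled library sizes, standard errors come with 95% confidence intervals, and the biological coefficient of variation was 0.0931. Transcript usage was tested by diffSpliceDGE. TPM served for levels and ratios. The GC offset was a lowess fit (span 0.3) per library. The scripts were tested on simulated counts.

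Named genes are the 10 chosen genes, CDKN1A, and up to 4 called genes of lowest p per direction in each related list, besides TP53BP1 and the overlapping genes, which were added after their values were seen. A few of the genes so named are left out here. The genes and lists were chosen with earlier results of these data known. Counting error is smallest in IR replicate 3, and intervals do not include effects shared by all libraries of a group. Replicates of a group differed by more than sampling noise, so no library was counted as a copy. The alternatives were filters, the size factors and the Wald test of DESeq2, the likelihood ratio test of edgeR, a replicate block, GC and length offsets, and leaving out each library in turn, and 3 more were added after the data were seen (fixed transcript weights, transcripts of at least 1000 bases, and the GC offset without IR replicate 3).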

Additional observations from a re-analysis of the deposited data

How the results depend on the processing

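The counts of genes called depended on the setting. Against 2 called higher and 5 lower, leaving out 1 library gave 0 to 2 higher and 3 to 6 lower. The GC offset, the GC offset with the replicate block, the GC offset without IR replicate 3 and the effective length offset each gave 1 higher. Transcripts of at least 1000 bases gave 0 higher and 3 lower. For PAXX that setting kept only PAXX-208, a retained intron of 1077 bases, and dropped PAXX-201 of 808 bases. Called lower were 3 genes with the replicate block, 3 with fixed transcript weights, 3 with the GC offset without IR replicate 3, and 1 with the effective length offset. PRKDC reversed to 0.069 with the effective length offset, where the mean effective length itself differed between the groups. For transcript usage, 1 gene was called, against 0 with at least 10 counts in every library, 0 with the replicate block and 0 to 2 when 1 library was left out. DCLRE1C was called lower under 18 of 18 alternatives, PRKDC and POLQ under 17, NHEJ1 under 9 and LIG4 under 6, PAXX higher under 12 and POLL under 10. XRCC4 was called higher under 3, each with the GC offset, XRCC5 lower under 4 and XRCC6 under 0. Over all genes, 2227 called higher and 2080 lower became 837 and 875 with the effective length offset, 1472 and 1601 with the GC offset and replicate block, 1295 and 1287 without untreated replicate 1, and 1357 and 1244 without untreated replicate 2. Genes called for usage (285) were 65 with at least 10 counts in every library, 149 with the replicate block and 443 without untreated replicate 3. The causes of the other changes were not tested.

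Deviations of same-numbered libraries were correlated at −0.02, 0.01 and −0.05, and 1 of 6 libraries correlated best with its own number, so the numbers were not taken to pair the libraries. With the replicate block, LIG4 (−0.31, adjusted p = 0.0758, edgeR) and NHEJ1 (−0.24, adjusted p = 0.0658, edgeR) were no longer called.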
